A study of Mus musculus with 77 samples.

Results

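The 9 loci described here carry genes of pluripotency and of the first cell lineages of the mouse embryo, and the question is when in S phase each of them was replicated in blastomeres of cloned embryos. They are Pou5f1, Sox2, Nanog, Dppa3, Klf4, Esrrb, Zfp42, Cdx2 and Gata6. Each was taken as the 80-kb bin that holds a supplied position of the gene in genome build mm9, not checked here against an mm9 annotation, plus 3 bins on each side, a window of 560 kb. The 9 windows hold 57 distinct bins of 32973 in the profiles, 30890 of them autosomal, and all 9 loci are autosomal. The windows of Nanog and Dppa3 share 6 of their 7 bins and are in effect a single region, so they do not count as separate observations.

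Each sample is 1 blastomere of a BDF1 mouse embryo cloned by somatic cell nuclear transfer (SCNT): an oocyte loses its own chromosomes and receives a somatic nucleus. All embryos, at both stages, were SCNT embryos cultured in vitro in CZB medium. No fertilised embryo is among the samples used here, so the values have no comparison with normal development. The 4-cell group has 28 cells, from 14 embryos, and the 8-cell group has 49, from 12. The labels used here name neither the donor cell type nor the embryos' age in hours.

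In S phase the genome is copied in a programme: large domains are duplicated early or late, and early domains are in general rich in genes and in open chromatin. In cultured pluripotent cells, genes that hold the pluripotent state tend to lie in early domains, and some of them move to later replication when the cells differentiate. Single-cell Repli-seq reads this from DNA copy number, since a replicated region has more copies than one still waiting. The cleavage embryo is the period in which the pluripotency genes are turned on, before trophectoderm, epiblast and primitive endoderm separate.

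The promoter sequences of 3 of these genes are shown because the results turn on these loci: Pou5f1 had the highest mean of the 9 at the 4-cell stage, Sox2 had the lowest at both stages, and Zfp42 had the largest fitted difference between the stages. Each is the 250 bases before the transcript start, 5′ to 3′ on the strand of the gene, with every CG in capitals. The sequences are RefSeq's, in build GRCm38.p6, which is not the build of the replication profiles: Pou5f1 at chr17:35505782-35506031 on the plus strand, Sox2 at chr3:34649745-34649994 on the plus strand and Zfp42 at chr8:43307010-43307259 on the minus strand.
Pou5f1: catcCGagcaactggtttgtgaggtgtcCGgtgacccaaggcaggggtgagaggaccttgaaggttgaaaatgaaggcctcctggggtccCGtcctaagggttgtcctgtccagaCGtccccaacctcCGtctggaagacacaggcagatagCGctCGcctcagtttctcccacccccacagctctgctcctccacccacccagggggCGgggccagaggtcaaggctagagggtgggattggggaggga
Sox2: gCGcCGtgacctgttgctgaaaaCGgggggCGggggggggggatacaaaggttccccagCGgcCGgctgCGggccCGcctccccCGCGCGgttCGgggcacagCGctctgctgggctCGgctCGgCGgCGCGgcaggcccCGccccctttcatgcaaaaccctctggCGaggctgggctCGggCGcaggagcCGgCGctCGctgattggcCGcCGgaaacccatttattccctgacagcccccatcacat
Zfp42: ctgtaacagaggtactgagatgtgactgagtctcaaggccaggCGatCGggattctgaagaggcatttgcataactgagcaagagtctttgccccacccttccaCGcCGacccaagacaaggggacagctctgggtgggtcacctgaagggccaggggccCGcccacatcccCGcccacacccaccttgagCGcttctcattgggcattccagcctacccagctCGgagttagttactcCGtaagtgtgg
CG was searched as the 2 letters C and G in order, which read the same on both strands. Of 32851 RefSeq promoter stretches of this length, 92.1% hold at least 1 CG and the median is 6. The latest of the loci, Sox2, had 27, more than 91.4% of the stretches, while Pou5f1 had 8 and Zfp42 had 9. Klf4 had 32, Cdx2 13, Esrrb 6 and Nanog 3. The 2 most CG-rich promoters of these 7, those of Klf4 and Sox2, belonged to the loci with the lowest means at the 8-cell stage. This did not hold at the 4-cell stage, where the mean of Zfp42 (11.4 points) was below that of Klf4 (21.3 points). With 7 promoters this is a description, and the profiles resolve 80 kb, not a promoter. Dppa3 and Gata6 are named only.

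The share of a cell's called autosomal bins that were replicated, which the authors call the Repliscore and give as a percent, places the cell in S phase. Cells between 30 and 70% are called mid-S here. Of the 4-cell cells 18, from 9 embryos, were mid-S, and of the 8-cell cells 28, from 10 embryos. The embryo is the replicate, and cell values were averaged per embryo. The main quantity is the window's replicated percent minus the same cell's autosomal percent, called the relative value, in percentage points. A window that is fully replicated reaches 100 minus the autosomal percent, so between loci at that ceiling the spread is that of the Repliscore alone. The cells come from 2 batches in the authors' annotation. The earlier batch holds 10 of the mid-S 4-cell cells (5 embryos) and no 8-cell cell, so batch and stage are in part confounded. Runs of a single state over 30 Mb or more of an autosome were present in 6 of 18 mid-S 4-cell cells, of 3 embryos of the later batch, and in 11 of 28 mid-S 8-cell cells, of 4 embryos. Of the 77 profiles, 0 pairs were identical. Read depth is unknown, since the files hold calls and not reads. Between 27057 and 29849 autosomal bins were called per cell.

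At mid S the mean of 8 of the 9 loci lay above that of their cells' autosomes and the mean of 1, Sox2, lay below, at both stages. Nanog and Dppa3 are 2 of the 8, and of all windows 51% at the 4-cell and 48.8% at the later stage lay above 0. The median relative value of the 9 loci was 28.8 points at the 4-cell stage, against 1.45 over 29636 autosomal windows of the same length. In the 8-cell embryos it was 41.9 points, against -1.86 over 29705 windows. A two-sided exact sign-flip test over embryos, run on all windows with Benjamini-Hochberg adjustment, called 5 of 9 loci at the 4-cell stage (Pou5f1, Nanog, Dppa3, Esrrb and Cdx2), all of them early, where 26.2% of all windows were called early and 26.1% late. A limma intercept on the same values called 8 of 9, 7 early and Sox2 late, with 34.5% of windows called early and 32% late. For the 8-cell embryos the exact sign-flip test called all 9, 8 of them early and Sox2 late, against 38.6% of windows called early and 39.9% called late.

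**Figure D1:**
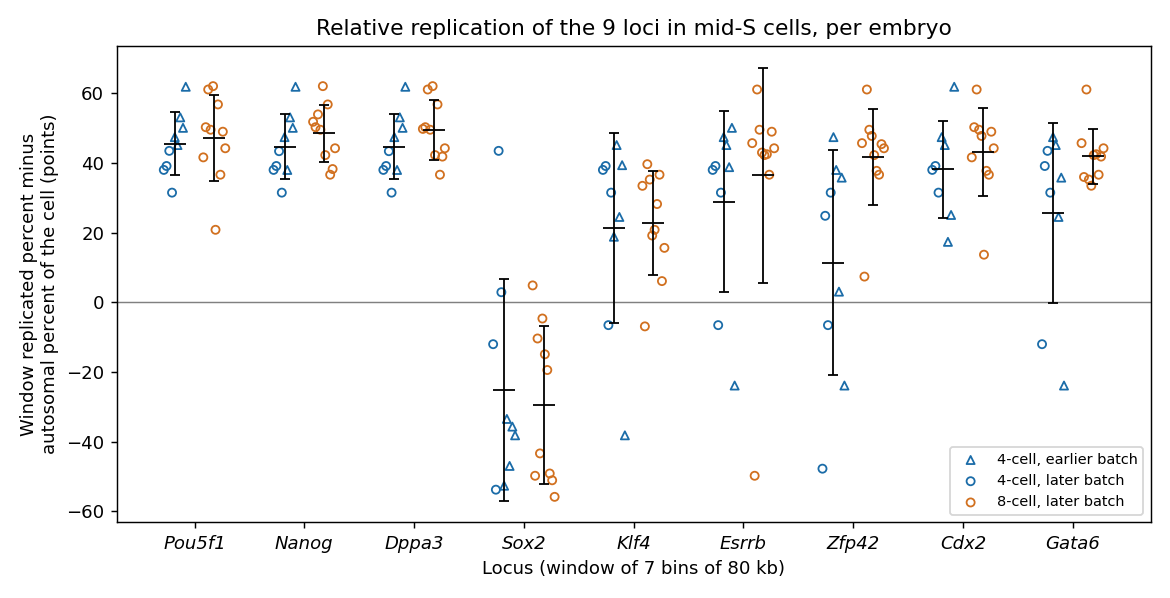
Relative value of each locus window (replicated percent of the window minus the autosomal percent of the same cell, percentage points) in mid-S cells, 1 point per embryo, for 9 4-cell and 10 8-cell embryos, with mean and SD. Pou5f1, Nanog and Dppa3 lie above 0 in every embryo, and Sox2 has means of -25.1 (4-cell) and -29.4 points (8-cell).

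Among the core pluripotency factors, Pou5f1 (Oct4, the POU-domain factor without which no pluripotent inner cell mass forms) was an early locus. Its window, chromosome 17 from 35360001 to 35920000, was fully replicated in all 9 4-cell embryos and on average 96.8% replicated at the 8-cell stage. Relative values at the 4-cell stage had a lowest value of 31.5, a median of 45.1 and a highest of 61.8 points, with a mean of 45.5 ± 8.99 (SD, n = 9; exact sign-flip test, adjusted p = 0.0163). Those of the 8-cell embryos ran from 20.8 through a median of 49.2 to 62 points, with a mean of 47.2 ± 12.3 (SD, n = 10; exact sign-flip test, adjusted p = 0.00393). All 19 embryos were above 0 and the stages overlapped. Among all windows the means stood at the 98.2nd and 92.6th percentile.

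Nanog, the homeodomain factor of the naive epiblast, and Dppa3 (Stella), a maternal protein that protects the maternal genome from loss of DNA methylation, lie side by side. The windows are chromosome 6 from 122400001 to 122960000 for Nanog and from 122320001 to 122880000 for Dppa3. In the 4-cell embryos both had the same values, from 31.5 through a median of 43.4 to 61.8 points, with a mean of 44.7 ± 9.34 (SD, n = 9; exact sign-flip test, adjusted p = 0.0163). Nanog ran from 36.6 through 49.9 to 62 points at the 8-cell stage, with a mean of 48.5 ± 8.16 (SD, n = 10; exact sign-flip test, adjusted p = 0.00393). Dppa3 had 49.4 ± 8.5 points there. Each of the 19 embryos was above 0, and the windows were at least 98.2% replicated on average at both stages.

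Sox2, the HMG-box partner of Pou5f1, was the late locus of the set. Its window, chromosome 3 from 34240001 to 34800000, had means at the 28.2nd (4-cell) and 29.2nd (8-cell) percentile of all windows. The relative value at the 4-cell stage ran from -53.8 through a median of -35.7 to 43.5 points, with 7 embryos below 0 and 2 above, and its mean of -25.1 ± 31.7 (SD, n = 9) was not called (exact sign-flip test, adjusted p = 0.0817). The 8-cell embryos ran from -55.8 through -31.4 to 4.85 points, with 9 below 0 and 1 above, a mean of -29.4 ± 22.7 (SD, n = 10; exact sign-flip test, adjusted p = 0.00902). This call was lost in cells between 40 and 60% (8 embryos, exact sign-flip test, adjusted p = 0.0808). The 2 4-cell embryos above 0 were both of the later batch. In the earlier batch the 5 embryos had -41.4 ± 8.11 points (SD) and in the later batch the 4 embryos had -4.86 ± 40.1 (SD). Without 4-cell embryo 6, one of these 2, the mean was -33.7 points and was called (8 embryos, exact sign-flip test, adjusted p = 0.0319). Without the cells that hold runs of 30 Mb or more it was -34 ± 19.5 (SD, 6 embryos), too few embryos for the sign-flip test.

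**Figure D2:**
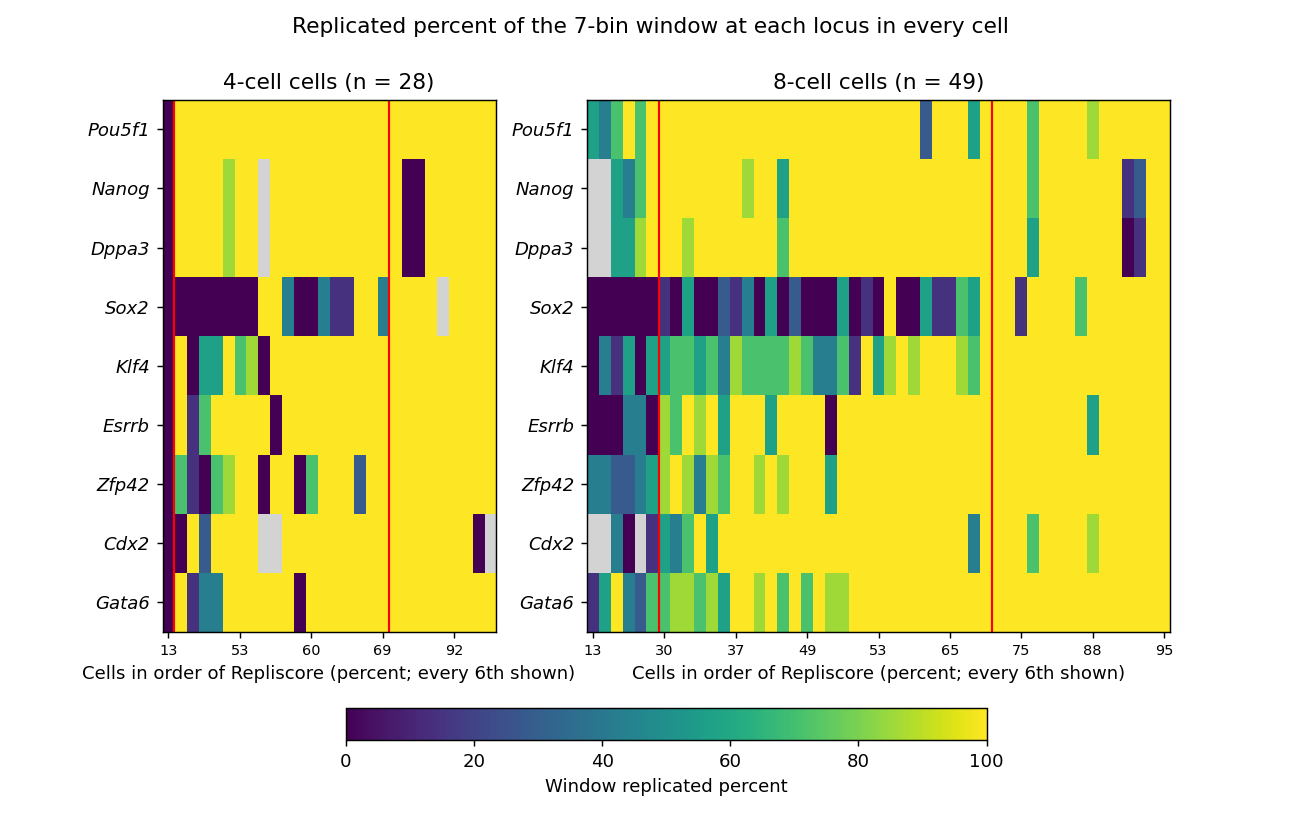
Replicated percent of the 9 locus windows (560 kb) in every cell at each stage, ordered by Repliscore (percent of called autosomal bins replicated). The state of the locus bin itself is not drawn. That bin was replicated in all 49 8-cell cells for Zfp42 and in 22 of 49 for Sox2. The lowest Repliscore of an 8-cell cell with the Sox2 bin replicated was 32.3%.

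Of the naive-state factors, Esrrb, an orphan nuclear receptor that sustains self-renewal, was an early locus with a few embryos far below. Its window, chromosome 12 from 87440001 to 88000000, had means at the 74.4th (4-cell) and 76.4th (8-cell) percentile of all windows. It ran from -23.9 through 38.8 to 50.1 points at the 4-cell stage, with a mean of 28.8 ± 25.9 (SD, n = 9; exact sign-flip test, adjusted p = 0.0326). In the 8-cell embryos it ran from -49.8 through 43.6 to 61.1, with a mean of 36.4 ± 31 (SD, n = 10; exact sign-flip test, adjusted p = 0.0263). The value of -49.8 came from embryo 2, whose single mid-S cell had the window unreplicated in a run of 30.2 Mb. Without cells holding runs of 30 Mb or more, the 8-cell mean was 45.8 ± 7.66 (SD, 8 embryos). The 4-cell call was lost on leaving out embryo 1, 3, 7, 9, 10, 11 or 13 (exact sign-flip test, adjusted p = 0.057 to 0.0639) and with the locus bin alone (0.0657). The 8-cell call was lost without embryo 3 (exact sign-flip test, adjusted p = 0.0506) and in cells between 40 and 60% (0.0629).

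Klf4, a zinc-finger factor of the naive state and of reprogramming, was nearer the middle of S phase. Its window, chromosome 4 from 55280001 to 55840000, had means at the 66.1st (4-cell) and 65.5th (8-cell) percentile of all windows. In 4-cell embryos it ran from -38.2 through 31.5 to 45.1 points (mean 21.3 ± 27.2, SD, n = 9; exact sign-flip test, adjusted p = 0.0917, not called). The 8-cell embryos ran from -6.9 through 24.5 to 39.6 (mean 22.8 ± 14.9, SD, n = 10; exact sign-flip test, adjusted p = 0.00902). The locus bin alone lost this call (adjusted p = 0.0716, exact sign-flip test). The window straddles a boundary at the 8-cell stage: 28 of 28 mid-S cells were replicated 240 kb before the locus bin, 23 of 28 in it, 3 of 28 at 320 kb beyond it and 0 of 28 at 400 kb. Of the 28 windows, 22 held both states.

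Zfp42 (Rex1), a zinc-finger protein used as a marker of the undifferentiated state, was early in every 8-cell embryo and spread to both sides of 0 at the 4-cell stage. Its window, chromosome 8 from 44080001 to 44640000, had means at the 57.5th (4-cell) and 83.5th (8-cell) percentile of all windows. The 4-cell embryos ran from -47.7 through 24.8 to 47.4 points, with 6 above 0 and 3 below (mean 11.4 ± 32.2, SD, n = 9; exact sign-flip test, adjusted p = 0.37, not called). All 10 8-cell embryos were above 0, from 7.38 through 44.8 to 61.1 (mean 41.7 ± 13.9, SD, n = 10; exact sign-flip test, adjusted p = 0.00393). The locus bin was replicated in 13 of 18 mid-S 4-cell cells and in 28 of 28 mid-S 8-cell cells. The 8-cell value depended on the width of the window: over 13 bins it was 21.3 ± 15.5 points (SD, n = 10), still called (exact sign-flip test, adjusted p = 0.00904).

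Of the first-lineage factors, Cdx2, the caudal homeobox factor of the trophectoderm, was early at both stages. Its window, chromosome 5 from 147840001 to 148400000, had means at the 89.2nd (4-cell) and 85.6th (8-cell) percentile of all windows. Of the 4-cell embryos 8 had enough called bins and ran from 17.3 through 38.5 to 61.8 points (mean 38.2 ± 13.9, SD, n = 8; exact sign-flip test, adjusted p = 0.0202). The 8-cell values ran from 13.7 through 46 to 61.1 (mean 43.1 ± 12.5, SD, n = 10; exact sign-flip test, adjusted p = 0.00393). Gata6, a zinc-finger factor of primitive endoderm, ran from -23.9 through 35.8 to 47.4 at the 4-cell stage (mean 25.7 ± 25.9, SD, n = 9; exact sign-flip test, adjusted p = 0.0509, not called). All 10 8-cell embryos were between 33.4 and 61.1 points, with a median of 42 (mean 41.9 ± 7.93, SD, n = 10; exact sign-flip test, adjusted p = 0.00393). The Gata6 window, chromosome 18 from 10800001 to 11360000, had means at the 70.4th (4-cell) and 83.7th (8-cell) percentile of all windows. A single 4-cell embryo, number 14, had only 14.3% of the Esrrb, Zfp42 and Gata6 windows and 0% of the Klf4 window replicated, in 1 cell with a Repliscore of 38.2%. Without it Klf4 (28.7 points) and Gata6 (31.8 points) were called at the 4-cell stage, each with an adjusted p of 0.0344 in the exact sign-flip test. Gata6 was also called without embryo 1 (30.4 points, exact sign-flip test, adjusted p = 0.0339) and both were called with cells from 20 to 80% (adjusted p = 0.0308 for Gata6 and 0.0427 for Klf4, exact sign-flip test).

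In order of their means at the 8-cell stage the loci were Dppa3, Nanog, Pou5f1, Cdx2, Gata6, Zfp42, Esrrb, Klf4 and Sox2. Of the 8 steps between neighbours, the step from Klf4 to Sox2 was larger than its spread, 52.1 ± 21 points (SD over 10 embryos) and in the same direction in 10 of 10. The step from Esrrb to Klf4, 13.6 ± 22.8 points, was smaller than its spread, as were the other 6. For the 4-cell embryos the order was Pou5f1, Nanog with Dppa3 at the same value, Cdx2, Esrrb, Gata6, Klf4, Zfp42 and Sox2, and no step exceeded its SD. The step from Zfp42 to Sox2 was 36.5 ± 52.1 points there (SD over 9 embryos, 7 of 9 in that direction).

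**Figure D3:**
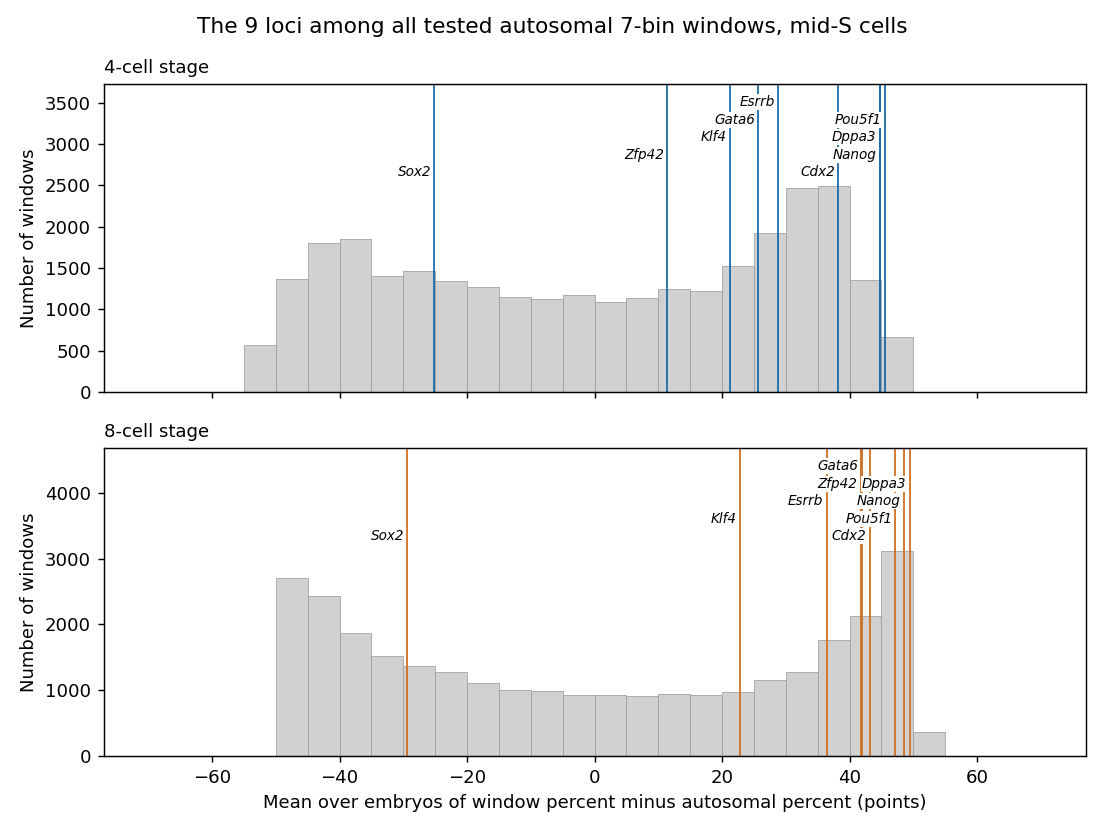
Distribution of the mean relative value (percentage points) over all autosomal windows of 560 kb in mid-S cells, with the 9 loci marked at their means, at each stage. The loci other than Sox2 lie right of the median of all windows, which was 1.45 points (4-cell) and -1.86 points (8-cell).

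The same loci can be set against each other within single cells. In 13 of 18 mid-S 4-cell cells the Pou5f1 bin was replicated while the Sox2 bin was not, and in 0 cells the reverse. For 8-cell cells these numbers were 20 and 1 of 28. Zfp42 was replicated ahead of Sox2 in 20 of 28 8-cell cells and behind it in 0, but at the 4-cell stage in 10 and 2 of 18. Klf4, the next latest locus at the 8-cell stage, was ahead of Sox2 in 16 cells and behind in 1. Cells of an embryo are not independent, so these are counts with no test.

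At the start of S phase only the 8-cell stage has more than 1 cell. There 6 cells of 4 embryos had Repliscores of 12.9 to 26.7%, and 4 of the 6 held a run of a single state over 30 Mb or more. The Zfp42 bin was replicated in 6 of 6 of them, Nanog in 4 of 4 called, Pou5f1 and Gata6 in 5 of 6, Dppa3 in 3 of 4, and Klf4 and Esrrb in 2 of 6. Sox2 was replicated in 0 of 6, which allows a share of up to 50% by counting alone, with the 6 cells taken as independent, which cells of an embryo are not. Cdx2 was replicated in 0 of 3 called. Over the whole 560-kb window the order was different: Dppa3 had a mean of 75% replicated, Pou5f1 73.8%, Nanog 67.9%, Gata6 52.4% and Zfp42 40.5%. Klf4 had 28.6%, Cdx2 19%, Esrrb 14.3% and Sox2 0%. The mean autosomal percent was 17% over the 6 cells. It was 18.9% in the 4 cells called at Nanog and Dppa3 and 19.4% in the 3 called at Cdx2. The Esrrb, Cdx2 and Sox2 windows were thus not ahead of their cells' autosomes here. The 1 early-S cell of the 4-cell stage, at 12.6%, had 0 of 9 locus bins replicated. In that cell Pou5f1, Sox2, Klf4 and Gata6 lay in unreplicated runs of 30.7, 58.8, 57.2 and 87.8 Mb. The other loci lay in runs under 30 Mb. A single cell gives no comparison of the stages in early S.

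In late S, over 70%, nearly all loci were replicated. Among 4-cell cells (9 cells, 5 embryos) the exceptions were Nanog and Dppa3, in 7 of 9, and Cdx2, in 7 of 8. Among 8-cell cells (15 cells, 8 embryos) they were Sox2, in 14 of 15, and Nanog and Dppa3, in 13 of 15. The unreplicated 4-cell bins of Nanog and Dppa3 were both in embryo 6 and lay in unreplicated runs of 66.6 and 66.7 Mb.

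**Figure D4:**
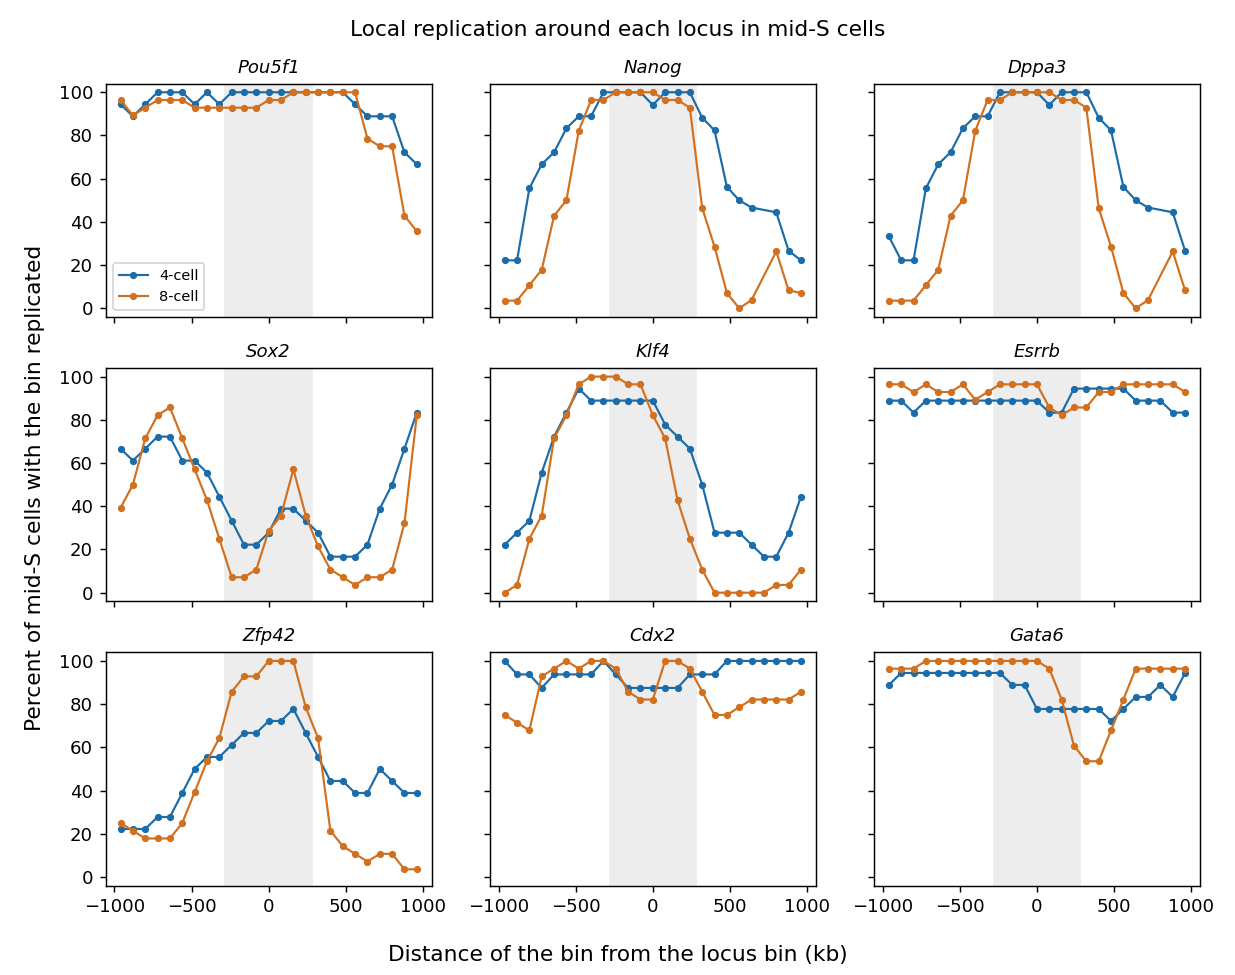
Percent of mid-S cells with a bin replicated, among those called, against distance from the locus bin (kb, 12 bins of 80 kb on each side), for 18 4-cell and 28 8-cell cells. Bins called in fewer than 50% as many cells as the best-called bin of the same profile are left out, and the grey band marks the 560-kb window. In 8-cell cells Zfp42 peaks at 100% at the locus bin, and Pou5f1 has a plateau.

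The surroundings of the loci differed in width. Around Pou5f1 between 26 and 28 of 28 mid-S 8-cell cells were replicated across the whole window, a plateau of early replication. Zfp42 sat in a narrow early domain: 28 of 28 8-cell cells were replicated at the locus bin and at 80 and 160 kb beyond it, but 6 of 28 at 400 kb. In the 6 early-S 8-cell cells its bin and the next one were replicated in 6 of 6, the bin at 160 kb in 3 of 6 and the bin just before in 2 of 6. In 4-cell cells the mid-S peak was 14 of 18 cells at 160 kb, falling to 8 of 18 at 400 kb.

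Sox2 was a late dip with a local rise at both stages. In 8-cell embryos 2 of 28 mid-S cells were replicated 240 kb before the locus bin and 8 of 28 in it. Beyond it 16 of 28 were replicated at 160 kb and 6 of 28 at 320 kb. Among mid-S 4-cell cells 4 of 18 were replicated 160 kb before the bin, 7 of 18 at 160 kb beyond and 3 of 18 at 400 kb. The Nanog and Dppa3 domain ended on the far side of Nanog at the 8-cell stage, where 13 of 28 cells were replicated at 320 kb, 2 of 28 at 480 kb and 0 of 28 at 560 kb. Gata6 was replicated in 28 of 28 8-cell cells at its bin and in 15 of 28 at 320 kb. Among 4-cell cells the Gata6 bin was replicated in 14 of 18.

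The loci also differed in how many genes surround them. In RefSeq's GRCm38.p6 annotation, used here only for which genes lie near each other, Pou5f1 has 21 other protein-coding genes within 280 kb, Nanog 13, Dppa3 10, Cdx2 8, Esrrb and Zfp42 4 each, Klf4 and Gata6 1 each, and Sox2 0. The median over 20661 genes is 10. The locus with the most neighbours, Pou5f1, had the highest mean at the 4-cell stage, though barely. It was 0.804 ± 2.38 points (SD) above Nanog there, with 7 of 9 embryos equal. At the 8-cell stage it stood behind Dppa3 and Nanog. Sox2, with 0 other protein-coding genes, had the lowest mean at both stages. Zfp42 and Gata6 were early at the 8-cell stage with few neighbours.

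The stages were compared by limma on embryo means of the window percent, with the embryo's autosomal percent as a covariate, over 29629 windows. Of the 9 loci 0 were called at adjusted p under 0.05, and 1, Zfp42, had an unadjusted p under 0.05. Of all windows 0.115% were called earlier and 0.446% later at the 8-cell stage, and 4494 had an unadjusted p under 0.05. The exact permutation of embryo labels also called 0 of 9, with 0.0304% of windows called earlier and 0.361% later. Zfp42 was higher at the 8-cell stage by 30.6 points (SE 11.5, 95% interval 6.5 to 54.7; limma p = 0.0156, adjusted p = 0.236), and 9 of 10 8-cell embryos lay above the 4-cell mean. The exact permutation test on relative values gave 30.4 points (p = 0.0115, adjusted p = 0.192).

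In the later batch alone, where both stages are present, the difference for Zfp42 was 39.6 points (SE 16.4, limma adjusted p = 0.207). Over 13 bins it was 19.4 points (limma adjusted p = 0.362). In the title sets that hold both stages it was 52.4 points (4-cell embryos 1 and 3) and 29.9 points (4-cell embryos 6 and 7), by relative values. Without cells holding runs of 30 Mb or more, which left 6 4-cell embryos, it was 23.9 points (limma adjusted p = 0.252). The 4-cell relative values of Zfp42 were 20.1 ± 29.7 (SD, n = 5) in the earlier and 0.502 ± 36.2 (SD, n = 4) in the later batch. The part of the batch in the stage difference was not tested.

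Gata6 was higher by 18.1 points at the 8-cell stage, with an interval from -0.492 to 36.7 (adjusted p = 0.341 in limma). In relative values each of the 10 8-cell embryos was above the 4-cell mean, as 9 of 10 were for Esrrb. The lowest Gata6 value, 33.4 points, was below its 4-cell median of 35.8. The size of the Gata6 difference rested on few embryos and on the setting. It was 6.87 points without 4-cell embryo 14, 31.9 with the locus bin alone and 10.7 over 13 bins. In the later batch alone it was 11.7, and in cells between 40 and 60% it was -0.14. The 95% intervals were narrow for Pou5f1 (-11.2 to 3.68), Nanog (-7.17 to 5.65) and Dppa3 (-6.2 to 5.88), whose windows were near the ceiling at both stages. They were wide for Esrrb (-18.6 to 37.5), Klf4 (-14.3 to 26.1), Cdx2 (-11.1 to 15.2) and Sox2 (-31.3 to 22.6). Sox2 had unlike values by batch: its difference was -4.38 points over both and -45.4 in the later batch alone (SE 18.7, limma p = 0.0304, adjusted p = 0.207). In the title sets the Sox2 difference, by relative values without the covariate, was 8.22 points against 4-cell embryos 1 and 3. Against 4-cell embryos 6 and 7 it was -55.7 points. Without 4-cell embryo 6 the pooled difference was 3.61 points.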

How the data were processed

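Whole-genome amplified DNA of single blastomeres was sequenced, per the labels' protocols. The authors deposited a binary profile per cell in 80-kb bins of mm9 (per the submitters' processing notes), a table with the Repliscore as a percent, a noise score, the embryo and the batch, per the file headers. Profile columns were matched to samples by title, and 2 of them, both 4-cell, end in a letter that the title lacks. Aligner and caller: not given in the sources used here. State 1 was read as replicated, -1 as unreplicated and 0 as uncalled: with this reading the percent replicated matched the deposited Repliscore to 4.98e-09.

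Window values needed at least 4 of 7 called bins. Windows measured in at least 8 embryos were tested by the two-sided exact sign-flip test and with limma 3.58.1 (R 4.3.3), with Benjamini-Hochberg adjustment over all autosomal windows. Python 3.11.15, numpy 2.4.6 and scipy 1.17.1 did the rest. The sign-flip test and limma were also run on simulated windows that were independent, normally spread and without a ceiling. The windows here overlap and have a ceiling, so that run does not cover data of this kind. P-values measure the spread between embryos. All 9 members were named, and the members and lists were chosen with earlier results of these data known. Alternatives were the mid-S range, window size, called bins, long runs, batch, test and leaving out each embryo. Other pathway genes that had been listed need mm9 positions and were not analysed here.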

Additional observations from a re-analysis of the deposited data

Results flagged for a closer look

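Within the 18 groups of embryo values (9 loci at 2 stages), 4 values, from 3 embryos, stood apart from the rest of their group by the ratio of gap to range, all at the 8-cell stage. Chance flags about 1 in 20 groups of independent, normally spread values. That rate need not hold here, since the groups share embryos and the values have a ceiling. The Esrrb window of embryo 2 had a relative value of -49.8 points, and the Zfp42 window of the same embryo 7.38 points, the lowest of 10 in each case. That embryo has a single mid-S cell. The Cdx2 window of embryo 6 was the lowest of its group at 13.7 points. The Gata6 window of embryo 3 was the highest at 61.1 points, where the window was fully replicated and the embryo's autosomal percent was 38.9%.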

How the results depend on the processing

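At the 4-cell stage a limma intercept in place of the exact sign-flip test called 8 loci in place of 5, and 34.5% of all windows early in place of 26.2%. Leaving out 1 embryo gave 4 to 7 called loci at the 4-cell stage, 8 to 9 at the 8-cell stage and 0 to 0 between the stages. The other alternatives that gave a count stayed within 1.5 times of it. Over 13 bins the 8-cell relative values fell to 21.3 points for Zfp42 (41.7 over 7 bins), 13 for Klf4 (22.8) and 31.3 for Nanog (48.5), each still called. The 4-cell counts for Repliscores of 40 to 60, without cells holding long runs and for each batch alone were not run, as fewer than 8 embryos remained.

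Uncalled stage differences changed sign as follows. Limma without the covariate and the exact permutation, both on relative values, gave 1.68 points for Pou5f1, 3.86 for Nanog and 4.73 for Dppa3. At these loci the mean window percent did not rise from the 4-cell to the 8-cell stage. It was 100 and 96.8 for Pou5f1, 99.2 and 98.2 for Nanog, and 99.2 and 99.1 for Dppa3. The ceiling of a relative value is 100 minus the autosomal percent. That percent averaged 55 over mid-S 4-cell cells and 48.9 over mid-S 8-cell cells. Repliscores of 40 to 60 gave 3.06 for Nanog, 0.206 for Dppa3, -10.8 for Klf4, -8.12 for Esrrb and -0.14 for Gata6. Those of 20 to 80 gave 2.63 for Nanog, 2.81 for Dppa3 and -0.986 for Cdx2. The locus bin alone gave 5.48 for Nanog, -1.04 for Klf4 and -2.49 for Cdx2. Sox2 was at 2.32 without cells holding long runs, and Klf4 at -0.404 in the later batch. Leaving out 1 embryo gave ranges of -2.65 to 5.75 for Cdx2, -0.945 to 0.567 for Dppa3, -2.59 to 19.1 for Esrrb, -5.67 to 9.24 for Klf4, -1.55 to 0.294 for Nanog, 6.87 to 21.1 for Gata6, with no change of sign, and -8.07 to 3.61 for Sox2. The cause was not tested.

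No paired analysis was possible because the labels give no replicate numbers that the stages share, and each embryo is of 1 stage. Bins of 80 kb and 9 or 10 embryos limit the precision.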

Other observations

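In 8-cell embryo 9 the Nanog and Dppa3 bins were unreplicated in 2 of 3 late-S cells, at Repliscores of 94.3 and 93.7%, in unreplicated runs of 0.64 and 3.04 Mb, while the mid-S cells of the same embryo had both bins replicated. In 4-cell embryo 5 the Cdx2 bin was unreplicated in a cell at 93.6%, in a run of 65.2 Mb.

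The 2 mid-S cells of 4-cell embryo 6 were opposite at Esrrb, Zfp42 and Klf4. The Esrrb window was fully unreplicated in one, in a run of 118 Mb, and fully replicated in the other, in a run of 96 Mb. At Zfp42 the window was fully replicated in one cell and fully unreplicated in the other, where it lay in a run of 129 Mb. The Klf4 window was fully replicated in the first and fully unreplicated in the second, in a run of 153 Mb.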
